A study of Homo sapiens with 14 samples.

Results

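The genes described here are 10 smooth-muscle-type contractile genes that myofibroblasts express, namely ACTA2, TAGLN, CNN1, MYL9, TPM1, TPM2, CALD1, ACTG2, MYLK and LMOD1. They were taken by name, as a fixed list of 10 of the 54628 gene symbols counted. All 10 were present in the counts and all 10 passed the filter on low counts. Their levels were followed across 14 RNA-seq libraries of IMR90, an established human line of lung fibroblasts, here 2 isolates at passage 5, in 7 groups of 2 libraries. The cell-line field of ICM 3, ICM 4 and the siCTCF libraries gives IMR91, IMR92, IMR93 and IMR94 in turn while their other labels give IMR90, and these 4 libraries were read as IMR90. The WT group was proliferating, wild-type cells with no treatment. The siHMGB2 group was equally untreated, with HMGB2 knocked down by siRNA. The ICM libraries were wild-type cells made senescent with 10 µM inflachromene for up to 6 days, a compound known to bind HMGB1 and HMGB2, which are chromatin proteins. The siSRRM2, siBANF1 and siCTCF groups were treated in the same way and are labelled as having SRRM2, BANF1 or CTCF knocked down as well. ICM replicates 1 and 2 were kept apart from ICM replicates 3 and 4, because the latter and siCTCF are labelled in another form than the remaining 10 libraries, and siSRRM2 and siBANF1 were set against ICM 1-2 and siCTCF against ICM 3-4. The labels do not say which isolate, how many days of treatment or which control siRNA, if any, a given library had, and nothing in them says that replicates came from separate cultures, so p-values measure only the spread between these libraries.

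Fibroblasts that take on a contractile state, called myofibroblasts, assemble smooth-muscle actin and myosin into stress fibres and pull on the matrix around them. The state is known from wound closure and lung fibrosis, and ACTA2 is its usual marker. Many of its genes carry a CArG box, a short element bound by serum response factor (SRF), which acts with the actin-sensing cofactors MRTFA and MRTFB and with myocardin (MYOCD), a cofactor of smooth muscle and heart.

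The 10 genes fall into 4 roles. The actins are ACTA2, smooth-muscle alpha-actin (chr10:88935074-88991339, minus strand), and ACTG2, smooth-muscle gamma-actin (chr2:73892314-73919865, plus strand). LMOD1 (chr1:201896452-201946588, minus strand) encodes leiomodin, which starts new actin filaments. The proteins that lie along or bundle actin filaments are the tropomyosins TPM1 (chr15:63042632-63071915, plus strand) and TPM2 (chr9:35681992-35690121, minus strand), caldesmon from CALD1 (chr7:134744252-134970728, plus strand), transgelin from TAGLN (chr11:117199321-117204782, plus strand) and calponin from CNN1 (chr19:11538717-11550323, plus strand). The motor side is MYL9 (chr20:36541484-36551447, plus strand), the regulatory light chain of myosin, and MYLK (chr3:123610049-123884331, minus strand), the kinase that phosphorylates that light chain to start contraction. Positions are those of GENCODE v29 on GRCh38.

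Because SRF reads the CArG box, the promoters that hold it are shown first. Windows of 300 bases, from 250 before to 50 after a transcript start, were taken from RefSeq (GRCh38.p14), which matched 8 of the 10 genes, in 13 windows. The element searched for was CC, then 6 letters that are each A or T, then GG, which reads the same way on both strands. It was found in 2 of the 8 genes, ACTG2 and MYLK. Over all RefSeq windows of the same length it was found in 1.6% of 27305 genes and in 1.29% of 35116 windows. A form in which 1 of the 6 inner letters was C or G was called CArG-like, and 4 of the 8 genes held a CArG box or a CArG-like element, against 9.88% of all genes. Of these genes, CALD1 held a CArG-like element, CCTAAAGAGG, in 1 of its windows (chr7:134711249-134711548, plus strand), which is not shown. That window lies before the GENCODE v29 span of CALD1 given above. The windows below carry the elements of ACTA2, ACTG2 and MYLK in capitals, each 5′ to 3′ on the gene's own strand. ACTA2 is shown at an internal start (chr10:88952724-88953023, minus strand), ACTG2 at its start (chr2:73892758-73893057, plus strand), and MYLK at an internal start near the 3′ end of the gene (chr3:123620499-123620798, minus strand), where the short transcript for telokin, a protein made of the end of the kinase, is known to begin.
ACTA2: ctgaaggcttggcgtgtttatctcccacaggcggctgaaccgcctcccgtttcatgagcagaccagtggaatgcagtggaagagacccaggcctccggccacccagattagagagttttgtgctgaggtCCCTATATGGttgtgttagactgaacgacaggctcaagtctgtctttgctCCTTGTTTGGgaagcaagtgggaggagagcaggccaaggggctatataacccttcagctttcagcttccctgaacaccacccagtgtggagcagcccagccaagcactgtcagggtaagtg
ACTG2: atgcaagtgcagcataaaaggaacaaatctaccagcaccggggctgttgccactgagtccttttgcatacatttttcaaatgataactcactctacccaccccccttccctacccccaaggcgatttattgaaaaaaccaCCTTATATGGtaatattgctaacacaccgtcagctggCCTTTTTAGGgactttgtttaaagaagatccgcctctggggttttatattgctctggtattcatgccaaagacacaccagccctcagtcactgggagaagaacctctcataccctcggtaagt
MYLK: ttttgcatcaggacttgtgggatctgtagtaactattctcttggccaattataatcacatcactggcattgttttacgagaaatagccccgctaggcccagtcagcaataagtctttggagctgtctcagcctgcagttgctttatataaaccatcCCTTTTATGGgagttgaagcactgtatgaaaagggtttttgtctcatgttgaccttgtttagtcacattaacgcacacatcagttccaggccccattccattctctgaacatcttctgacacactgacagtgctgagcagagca
In the ACTA2 window the capitals mark 2 CArG-like elements, CCCTATATGG and CCTTGTTTGG, whose first bases lie 121 and 71 bases before the start. In ACTG2 they mark 2 CArG boxes, CCTTATATGG and CCTTTTTAGG, at 110 and 73 bases before the start. The MYLK window holds a single CArG box, CCTTTTATGG, at 94 bases before the start. A match to these letters is a description of the sequence and not a measured binding site.

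Library sizes ran from 22336161 to 58257456 gene counts, so that even the lowest level of the 10 genes, 0.8589 CPM (a gene's count after every library is scaled to the same total of gene counts) of CNN1 in siCTCF 2, rests on counted reads. Reads given to no gene made up 12.75% to 18.02% of the WT, siHMGB2, ICM 3-4 and siCTCF libraries and 26.5% to 41.78% of ICM 1-2, siSRRM2 and siBANF1. The ICM 1 and ICM 2 libraries stood apart from each other, and so did siBANF1 1 and siBANF1 2. The level in ICM 2 was below 50% of that in ICM 1 for 16.9% of 13116 genes. Of the knockdowns, HMGB2 lay at 3.178 and 3.522 CPM in siHMGB2 against 27.68 and 28.01 CPM in the untreated wild type. CTCF was at 71.5 and 22.97 CPM in siCTCF and at 94.87 and 91.92 CPM in its ICM controls. BANF1 was not lower in the libraries labelled siBANF1 (16.96 and 36.72 CPM) than in ICM 1-2 (13.52 and 32.72 CPM), and SRRM2 was lowest of all there, at 58.98 and 17.01 CPM. It was at 76.05 and 76.42 CPM in the group labelled siSRRM2 and at 237.8 and 112.4 CPM in the ICM 1-2 controls. In the group labelled siSRRM2, BANF1 was at 34.24 and 33.34 CPM, above ICM 1 and ICM 2. Its RNA was thus not reduced against these controls under either label. The submitters' files of the siSRRM2 and siBANF1 groups are each named for the other group's knockdown, so the labels may be exchanged. The names of the groups are therefore given as labels, and no direction below is tied to BANF1 or SRRM2.

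The cells carried fibroblast markers, and 4 of 8 markers of mature smooth muscle stayed below 1 CPM. All 10 fibroblast markers, COL1A1, PDGFRA and VIM among them, were above 1 CPM in every library, and their summed level in WT was 19500 to 26130 CPM. MYH11, the heavy chain of smooth-muscle myosin, was listed at 0 in 13 of the 14 libraries and at 0.03942 CPM in the other, and DES, KCNMB1 and PLN were the other genes below 1 CPM everywhere. SMTN (44.34 to 221 CPM), SYNM (6.673 to 67.27 CPM), SYNPO2 (2.14 to 26.78 CPM) and MYOCD (0.112 to 81.69 CPM) were expressed. ACTN4 and ZYX, which fibroblasts are known to express, were also listed at no more than 0.1215 and 0.07883 CPM, so a count near 0 in these files does not by itself show that a gene was silent. The defining markers of other lineages were also at or near 0: KRT5, SFTPC and CD3E were listed at 0 in every library, and PECAM1 reached 0.1347 CPM, CDH5 0.02247 CPM, EPCAM 0.6801 CPM and PTPRC 0.08939 CPM at most. TEK (2.502 to 240.9 CPM), KRT18 (17.72 to 193.7 CPM) and CD14 (0.2429 to 12.95 CPM) were detected within those lists, as were KRT8 (9.23 to 20.99 CPM) and KDR (up to 8.133 CPM). All 5 pericyte markers were detected, mainly RGS5 (3.981 to 602.8 CPM), and summed to 604.2 to 716.5 CPM in WT. The 6 markers of striated muscle summed to at most 4.129 CPM.

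Levels of the 10 genes spanned very different ranges. ACTG2 had the widest, from 2.838 CPM in siCTCF 2 to 344.2 CPM in siHMGB2 2, a ratio of 121. MYLK followed with a ratio of 72, TAGLN with 65.3, LMOD1 with 61.6 and CNN1 with 52.4. TPM2 had the narrowest, from 460.2 CPM in ICM 4 to 1610 CPM in siHMGB2 2, a ratio of 3.5. The highest level was in siHMGB2 2 for 8 of the 10 genes, in ICM 1 for CNN1 and in the library siBANF1 1 for MYLK. The lowest was in ICM 3, ICM 4 or siCTCF 2 for 9 genes and in siSRRM2 2 for MYL9.

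**Figure D1:**
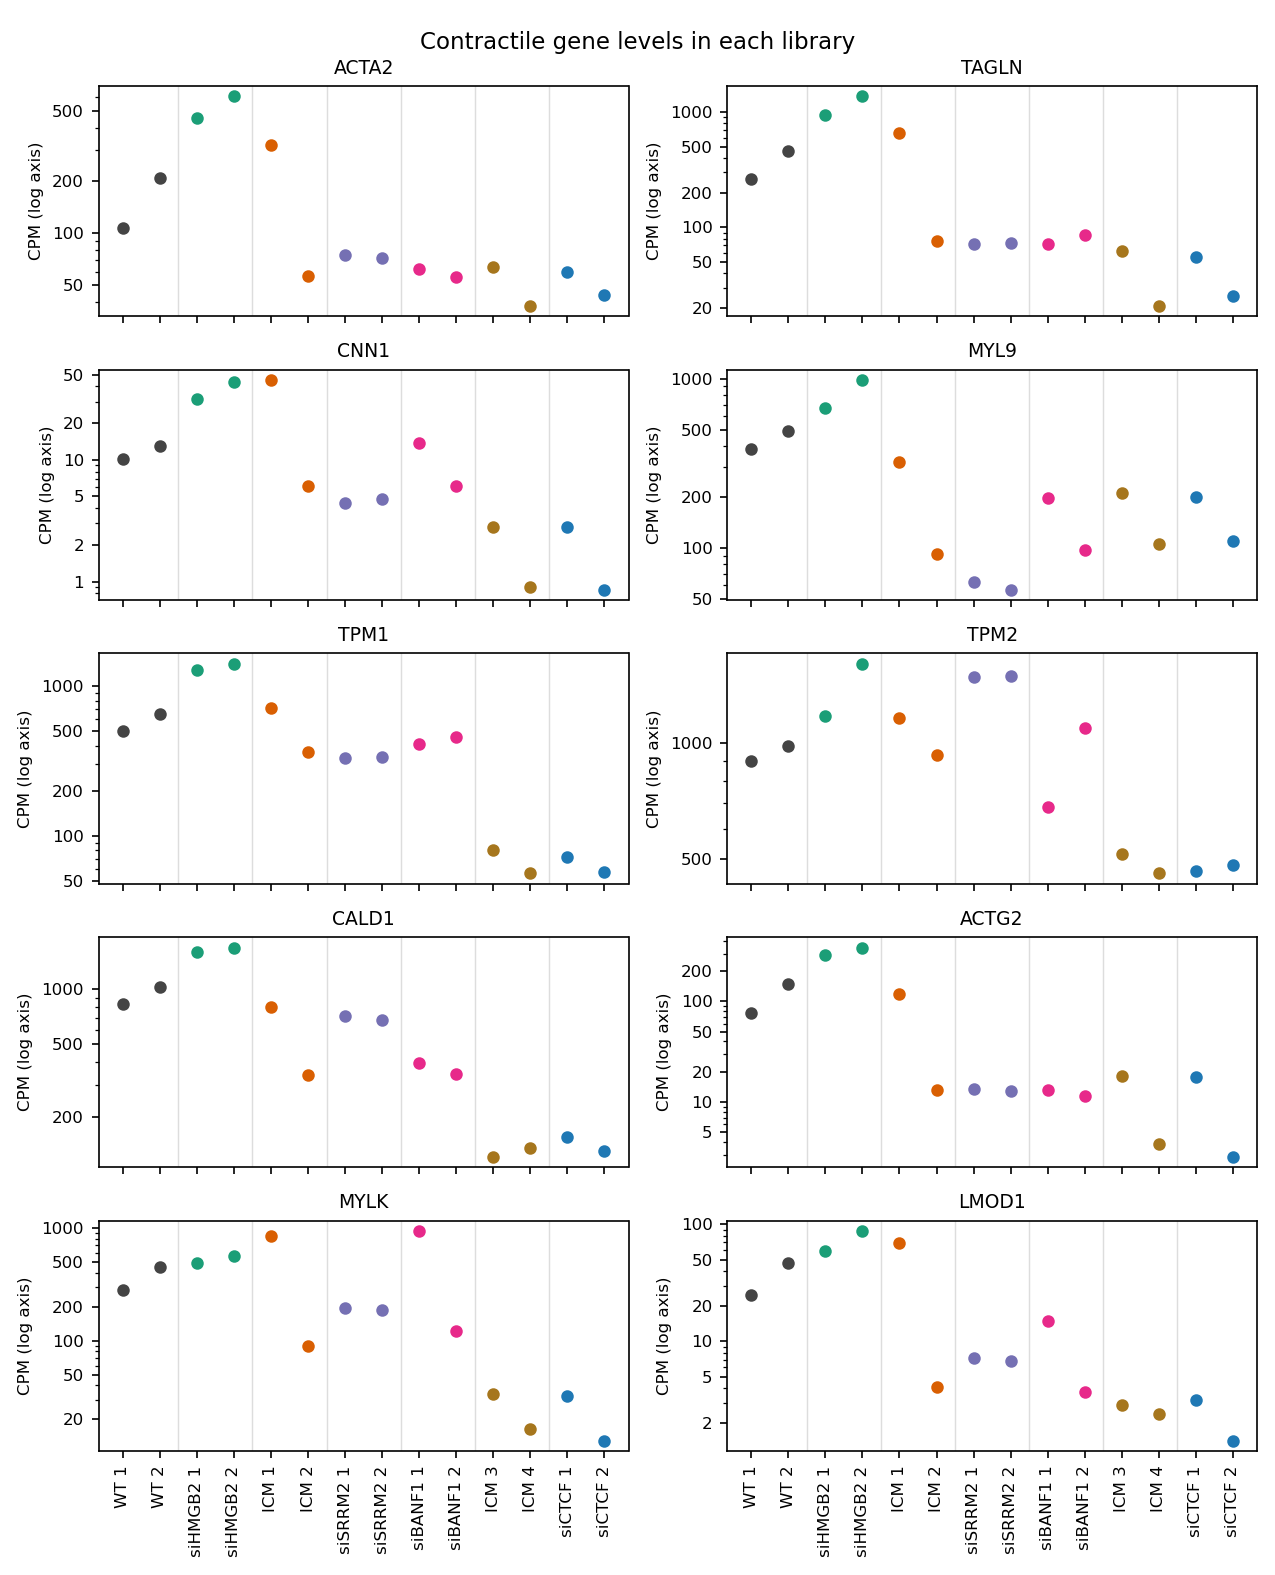
Each panel shows 1 gene and each point 1 library, with CPM on a log axis and colours for the 7 groups. Both siHMGB2 libraries lie above both WT libraries in every panel, and the share of all genes separated in this way was not counted. ICM 1 and ICM 2 lie far apart in most panels, and the lowest point lies in ICM 3, ICM 4 or siCTCF 2 in every panel but MYL9.

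Compared per kilobase of exonic length, TPM2 was the most abundant of the 10 in all 7 groups. In WT it stood at 290.5 ± 18.2 CPM per kilobase (SD, n = 2), and MYL9 came next with 154.7 ± 26.5. CALD1 (94.54 ± 14.9), TAGLN (91.33 ± 34.9) and ACTA2 (52.69 ± 23.5) followed. CALD1 and TAGLN differed by less than their spread, as did ACTA2 and TPM1 (44.68 ± 8.09). ACTG2 came after them with 29.58 ± 13.5. MYLK (16.46 ± 5.31), LMOD1 (8.979 ± 3.79) and CNN1 (3.977 ± 0.692) were the least abundant. After HMGB2 knockdown TAGLN stood beside MYL9, at 292.9 ± 77.1 against 292 ± 77.7 CPM per kilobase. In ICM 3-4, MYL9 (55.79 ± 26.3) and ACTA2 (17.18 ± 6.16) followed TPM2 (150.2 ± 12.1), and TAGLN stood at 10.59 ± 7.44 CPM per kilobase. Exonic length covers all annotated transcripts of a gene, so a gene made mainly as a short transcript, as MYLK can be, is understated on this scale.

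In most groups 1 replicate lay above the other across most of these genes. In WT 2 all 10 were above WT 1, at 109% to 195% of its level with a median of 144%, while the median over 13079 genes was 101%. In siHMGB2 2 all 10 were above siHMGB2 1, at 106% to 148%. In ICM 4, 9 of the 10 were below ICM 3, and in siCTCF 2, 9 of the 10 were below siCTCF 1. The siSRRM2 libraries were alike for every gene, at 89.6% to 107% of each other. The libraries labelled siBANF1 did not follow this, with 3 genes higher and 7 lower in the second, from 13% (MYLK) to 160% (TPM2) of the first. In WT, siHMGB2, ICM 1-2, ICM 3-4 and siCTCF the difference between replicates ran the same way in most of these genes. The 10 fold changes of a comparison are therefore not 10 independent measurements.

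With HMGB2 knocked down in untreated cells, 9 of the 10 genes were called higher by edgeR. MYLK was also higher in both knockdown libraries than in WT but was not called. The actins, calponin and transgelin had the highest fold changes: ACTA2 rose 3.53-fold, CNN1 3.39-fold, TAGLN 3.34-fold and ACTG2 2.93-fold. TPM1 rose 2.43-fold, LMOD1 2.14-fold, MYL9 1.97-fold, CALD1 1.84-fold and TPM2 1.54-fold. In these bulk libraries a higher level cannot be told apart as more RNA per cell or more cells of a contractile kind.

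ACTA2 was counted at 455.8 and 607.9 CPM in the knockdown libraries and at 107.4 and 206.2 CPM in the WT libraries. Both knockdown libraries lay above the higher WT library, although the WT libraries themselves differed 1.92-fold. The log2 fold change was 1.82 (SE 0.24, 95% interval 1.30 to 2.34, adjusted p = 0.000534, edgeR quasi-likelihood test over 19126 genes). TAGLN, a protein that gathers actin filaments into bundles, was at 933.9 and 1361 CPM against 261 and 454.4 CPM. CNN1, which holds back the myosin motor on actin, was at 31.72 and 43.21 CPM against 10.07 and 12.89 CPM, with the smallest adjusted p of the 10 by the same test (0.000111). ACTG2, the second smooth-muscle actin, was at 289.9 and 344.2 CPM against 76.43 and 149.1 CPM. In each of these genes the 2 groups did not overlap, and how many of all genes were separated in this way was not counted. ACTA2 and ACTG2 encode near-identical proteins. Reads listed as not uniquely aligned were given to no gene, and how many of them came from these 2 genes was not known.

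The tropomyosins moved by different amounts. TPM1 was at 1278 and 1411 CPM in the knockdown libraries, where WT had 501.6 and 649 CPM, with a log2 fold change of 1.28 (SE 0.17). TPM2 was at 1178 and 1610 CPM against 901.7 and 985.4 CPM, with a log2 fold change of 0.62 (SE 0.18) and an adjusted p of 0.0483 by edgeR. The intervals of these fold changes, 0.92 to 1.64 for TPM1 and 0.24 to 1.00 for TPM2, overlap, and their difference was not tested. The ratio of TPM2 to TPM1 counts, used only to compare libraries, was 1.8 and 1.52 in WT and 0.922 and 1.14 in siHMGB2. CALD1, caldesmon, was at 1595 and 1691 CPM against 827.1 and 1034 CPM.

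On the motor side, MYL9 was at 668.8 and 978.9 CPM after the knockdown and at 383.7 and 489.4 CPM without it. MYLK was at 482.8 and 560.1 CPM against 281.7 and 448.1 CPM. The MYLK groups did not overlap, but its log2 fold change of 0.57 (SE 0.19, interval 0.17 to 0.98) did not pass the threshold (adjusted p = 0.0876, edgeR). LMOD1 was at 59.19 and 87.42 CPM against 25 and 46.31 CPM.

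Of all 19126 genes tested, 4.27% were called higher and 3.63% called lower by the same rule, an adjusted p under 0.05, where 9 of these 10 genes were called higher. The median log2 fold change was 1.19 over the 10 genes and 0.00 over all genes tested. Of the 10 fibroblast markers 3 rose and 2 fell, with a summed level of 27930 to 32930 CPM, and the pericyte markers summed to 537.6 to 694.4 CPM, overlapping WT. Of the 5 pericyte markers 2 were called higher, NOTCH3 at a log2 fold change of 1.08 (SE 0.17, adjusted p = 0.0016, edgeR) and CSPG4 at 0.96 (SE 0.20, adjusted p = 0.0106, edgeR). The part of these markers in the contractile genes was not tested. The calls of LMOD1 and TPM2 depended on the tool and scaling: DESeq2 did not call LMOD1 (adjusted p = 0.179) and called MYLK (adjusted p = 0.0202), and scaling by total counts lost TPM2 (adjusted p = 0.0685, edgeR). Without siHMGB2 2 only 4 of the genes were called, and MYL9 (0.65), TPM2 (0.35), CALD1 (0.81), ACTG2 (1.40) and LMOD1 (0.77) had adjusted p-values from 0.0587 to 0.332 on the same log2 scale, by edgeR. Without WT 1, TPM2 and CALD1 lost their calls, and without WT 2, TPM2 lost its call while MYLK gained one. A single fit of all 14 libraries, in which the ICM 1-2 and siBANF1 libraries enter the spread, gave the same fold changes and called 0 of the 10, and 0 of all genes, with 948 genes at an unadjusted p under 0.05 there against 3864 in the fit of the 4 libraries.

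**Figure D2:**
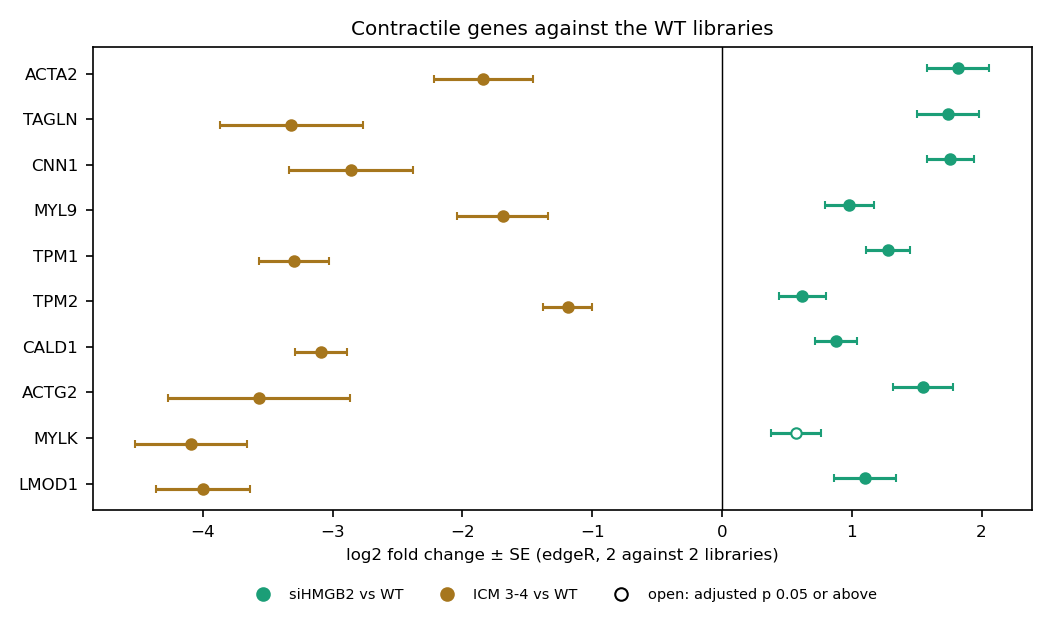
Log2 fold changes of the 10 genes against WT, with bars of 1 standard error, for siHMGB2 (right) and ICM 3-4 (left). Filled points had an adjusted p under 0.05 by edgeR. All siHMGB2 values lie above 0 and all ICM 3-4 values below it, and MYLK has the smallest value on the right (0.57) and the lowest on the left (-4.09).

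ICM treatment gave opposite pictures in the first set of libraries. In ICM 1 the contractile genes were mostly above WT, and in ICM 2 mostly far below it. ACTA2 was at 318.9 CPM in the first ICM library and 56.78 CPM in the second, on both sides of the WT libraries. TAGLN was at 651.2 and 75.74 CPM, MYLK at 845.3 and 89.37 CPM, CNN1 at 45.02 and 6.135 CPM, and LMOD1 at 69.6 and 4.09 CPM. For each of these 5 genes ICM 1 exceeded both WT libraries and ICM 2 fell short of both. ACTG2, at 118.7 CPM in ICM 1, lay between the WT libraries and was at 13.06 CPM in ICM 2.

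The remaining genes differed less between ICM 1 and ICM 2. MYL9 was at 321.2 and 91.42 CPM, below WT in both. CALD1 was at 800.9 and 339.5 CPM, and TPM1 at 719.4 and 361.6 CPM. TPM2 was at 1164 and 935.4 CPM, close to WT in both libraries. Set against ICM 1, ICM 2 held 5.88% of its LMOD1, 10.6% of MYLK, 11% of ACTG2, 11.6% of TAGLN, 13.6% of CNN1, 17.8% of ACTA2, 28.5% of MYL9, 42.4% of CALD1, 50.3% of TPM1 and 80.4% of TPM2. So 8 of the 10 genes were below 50%, where 16.9% of 13116 genes were. With 1 library on each side this compares the libraries, not conditions.

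None of the 10 genes was called between ICM 1-2 and WT (edgeR), where 0.173% of all genes were called higher and 0.308% lower. At an unadjusted p under 0.05 there were 4448 genes, none of them among the 10, and DESeq2 also called 0 of the 10. The intervals were wide: the log2 fold change was 0.18 for ACTA2 (-2.03 to 2.39), -0.05 for TAGLN (-2.61 to 2.51), -0.02 for LMOD1 (-3.10 to 3.07) and -0.20 for TPM1 (-1.46 to 1.06). MYL9, at -1.17 (-2.90 to 0.55), was the lowest of the 10. The result rested on which ICM library was used. Without ICM 1 the log2 fold change from WT was -3.33 for LMOD1, -3.32 for ACTG2, -2.46 for MYL9 and -2.45 for TAGLN. MYLK was at -2.24, ACTA2 at -1.67, CALD1 at -1.66, CNN1 at -1.11 and TPM1 at -0.88. Without ICM 2, CNN1 was at 1.91, MYLK at 1.15, ACTA2 at 0.97, LMOD1 at 0.91, TAGLN at 0.81 and MYL9 at -0.50. These fits leave 1 treated library, which is assumed to vary as the WT libraries do. Only fold changes are therefore given, and not for every gene. In ICM 1-2 the fibroblast markers summed to 4160 to 12720 CPM and the pericyte markers to 31.17 to 207.3 CPM, below WT in both libraries, and their part in the contractile genes was not tested.

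**Figure D3:**
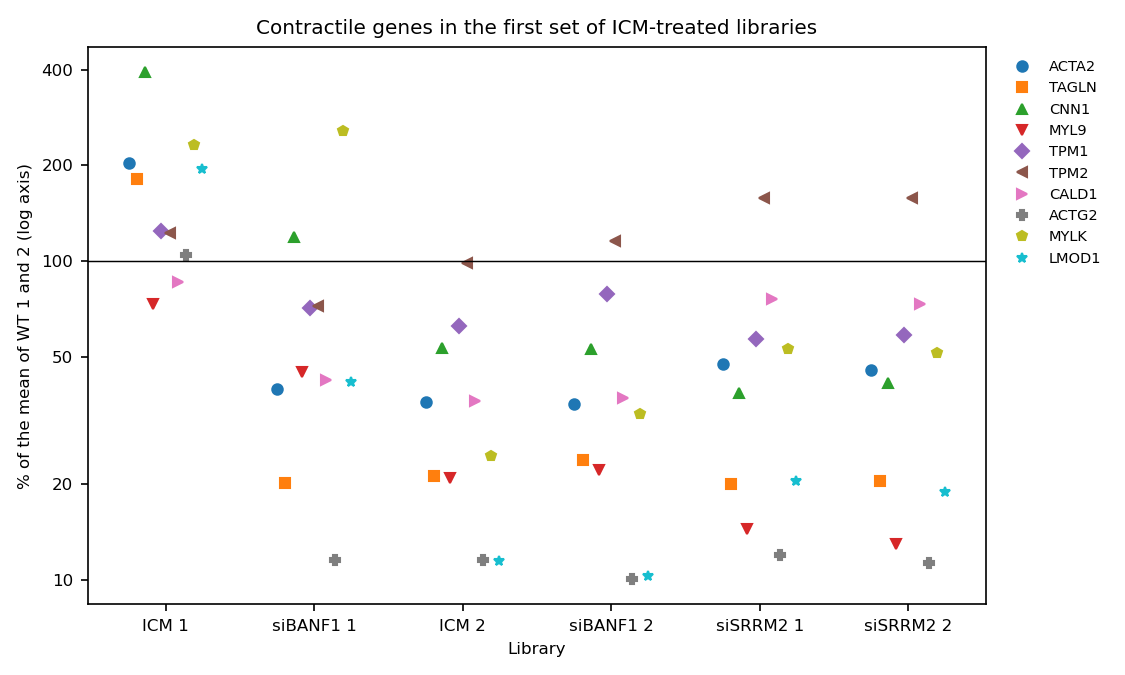
Level of each of the 10 genes as a percentage of the mean of WT 1 and WT 2, on a log axis, in ICM 1, ICM 2 and the libraries labelled siBANF1 and siSRRM2. ICM 1 runs from 73.6% (MYL9) to 392% (CNN1). ICM 2 runs from 11.5% (LMOD1) to 99.1% (TPM2), and siBANF1 1 has MYLK at 256% beside ACTG2 at 11.6%.

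In the second ICM set all 10 genes fell below WT. MYLK fell 17-fold, LMOD1 16-fold, ACTG2 11.9-fold, TAGLN 9.99-fold, TPM1 9.85-fold, CALD1 8.54-fold and CNN1 7.28-fold. ACTA2, the usual marker of the state, fell less, by 3.58-fold, MYL9 by 3.23-fold and TPM2 by 2.28-fold. WT had no library in this set, so treatment and set cannot be told apart in these values. The WT libraries are the same as those set against siHMGB2, and the first-set ICM libraries likewise serve both siSRRM2 and siBANF1 below.

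MYLK was at 33.55 and 16.36 CPM after treatment, where WT had 281.7 and 448.1 CPM, a log2 fold change of -4.09 (SE 0.43, interval -5.10 to -3.08, adjusted p = 0.000503, edgeR). LMOD1 was at 2.844 and 2.404 CPM against 25 and 46.31 CPM. ACTG2 was at 18.15 and 3.823 CPM against 76.43 and 149.1 CPM. The ACTG2 treated libraries differed 4.75-fold from each other and yet both lay under the lower WT library. TAGLN was at 62.08 and 20.85 CPM against 261 and 454.4 CPM, and CNN1 at 2.803 and 0.9066 CPM against 10.07 and 12.89 CPM.

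TPM1 was at 80.69 and 56.17 CPM after treatment, where WT had 501.6 and 649 CPM, a log2 fold change of -3.30 (SE 0.27, interval -3.95 to -2.65). TPM2 was at 515.8 and 460.2 CPM against 901.7 and 985.4 CPM, a log2 fold change of -1.19 (SE 0.19, interval -1.63 to -0.74). These intervals do not overlap. The ratio of TPM2 to TPM1 counts was 6.39 and 8.19 in ICM 3-4, against 1.8 and 1.52 in WT. CALD1 was at 121.7 and 135.9 CPM against 827.1 and 1034 CPM, and had the smallest adjusted p of the 10 (0.00013, edgeR). ACTA2 was at 64.08 and 38.16 CPM against 107.4 and 206.2 CPM, with a log2 fold change of -1.84 (SE 0.38), while that of ACTG2 was -3.57 (SE 0.70). The ratio of ACTA2 to ACTG2 counts went from 1.41 and 1.38 in WT to 3.53 and 9.98 in ICM 3-4. MYL9 was at 209.8 and 105 CPM against 383.7 and 489.4 CPM.

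Many other genes moved in this comparison: 25.3% of all genes tested were called lower and 23.4% higher, and with scaling by total counts 3838 genes were lower and 5552 higher in place of 4838 and 4478. That scaling moved the median over all genes from -0.01 to 0.18 on the log2 scale, and all 10 contractile genes remained called lower under it. Their median log2 fold change was -3.20, against -0.01 over all genes tested. In the single fit of 14 libraries ACTA2 (adjusted p = 0.0547) and MYL9 (adjusted p = 0.0614) were not called. Fibroblast markers moved with the contractile genes: 9 of 10 were called lower, led by PDGFRA with a log2 fold change of -6.41, and their summed level was 2060 to 4243 CPM in ICM 3-4. Pericyte markers moved with them as well, 4 of 5 lower, from RGS5 at -7.20 to CSPG4 at -1.95, and 1 higher, with a summed level of 18.29 to 30.2 CPM. The part of these in the contractile genes was not tested. ACTA2 also shares 12.77% of its exonic length with FAS, a death receptor gene on the opposite strand counted at 34.6 to 245 CPM, and TAGLN shares 11.39% with PCSK7. Whether the counting used strand is not stated, so reads of these pairs may be mixed or set aside.

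Between the sets, all 10 genes had lower fitted levels in ICM 3-4 than in ICM 1-2, but none was called (edgeR), where 0.413% of all genes were called higher and 0.533% lower. At an unadjusted p under 0.05 there were 4709 genes, 9 of the 10 among them. TPM1 came closest, with a log2 fold change of -3.10 (SE 0.57, interval -4.43 to -1.77, adjusted p = 0.0533, edgeR). DESeq2 and the single fit each called 7 of the 10 lower, where they called 1505 and 2256 of all 19126 genes lower. The level in ICM 3-4 lay below that of both ICM 1 and ICM 2 for CNN1, TAGLN, TPM1, TPM2, CALD1, MYLK and LMOD1. How many of all genes were separated in this way was not counted, so this describes the levels only. For MYLK the log2 difference was -4.37 (interval -6.88 to -1.87) and for LMOD1 -3.98 (-6.74 to -1.21). MYL9 did not follow, with levels that overlapped and a log2 difference of -0.52 (-2.12 to 1.08). ACTA2 in ICM 3, at 64.08 CPM, was above ICM 2 at 56.78 CPM, and ACTG2 in ICM 3, at 18.15 CPM, was above ICM 2 at 13.06 CPM. With ICM 1 and ICM 2 left out in turn, the log2 difference was -2.42 and -3.56 for TPM1. It was -1.43 and -2.82 for CALD1 and -1.85 and -5.24 for MYLK. For LMOD1 it was -4.17 without ICM 3 and -3.81 without ICM 4. These fits leave a single library in a group, so only log2 differences are given.

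The libraries labelled siSRRM2 held ACTA2, TAGLN, CNN1, TPM1 and ACTG2 at 72.5% to 132% of their level in ICM 2, and siSRRM2 1 held them at 9.88% to 45.7% of ICM 1. ACTA2 was at 74.95 and 71.59 CPM, TAGLN at 71.69 and 73.26 CPM, ACTG2 at 13.57 and 12.74 CPM and CNN1 at 4.449 and 4.781 CPM. MYL9, at 63.2 and 56.64 CPM, was at its lowest of all 7 groups here. TPM2, at 1486 and 1495 CPM, was above both ICM libraries, and so was the ratio of TPM2 to TPM1 counts, at 4.52 and 4.42 against 1.62 in ICM 1 and 2.59 in ICM 2. CALD1, at 711.3 and 682 CPM, and MYLK, at 194.5 and 188.2 CPM, lay between the ICM libraries. Against ICM 2 alone, CALD1 was at 210% and 201%, MYLK at 218% and 211%, LMOD1 at 177% and 165% and TPM2 at 159% and 160%, where 8.25% and 8.02% of genes were above 200%.

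None of the 10 genes was called between siSRRM2 and ICM 1-2 by edgeR, which called 0% of all genes higher and 0% lower, while DESeq2 called 204 genes and none of the 10. There were 1603 genes at an unadjusted p under 0.05, none of the 10 among them. The log2 fold change was -2.53 for CNN1 (interval -5.31 to 0.25), -2.39 for TAGLN (-5.31 to 0.53), -1.83 for MYL9 (-3.71 to 0.04) and 0.49 for TPM2 (-0.41 to 1.40). The 2 ICM libraries decided these values. Without ICM 1, MYLK was at 1.17, CALD1 at 1.11, LMOD1 at 0.85, TPM2 at 0.74, ACTA2 at 0.44 and MYL9 at -0.54. Without ICM 2, MYLK was at -2.22, CALD1 at -0.28, LMOD1 at -3.39, TPM2 at 0.28, ACTA2 at -2.20 and MYL9 at -2.50. Only fold changes are given for such fits. These fits take the spread from the siSRRM2 libraries alone, which were nearly alike, and assume that the lone ICM library varies as little, where ICM 1 and ICM 2 did not.

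In the libraries labelled siBANF1 the contractile genes did not keep to one another. In siBANF1 1, MYLK was at 932.7 CPM, 110% of ICM 1 and the highest level of the gene in any library, while ACTA2 (62.48 CPM), TAGLN (72.3 CPM) and ACTG2 (13.11 CPM) were at 19.6%, 11.1% and 11% of ICM 1. CNN1, at 13.64 CPM, MYL9, at 196.2 CPM, and LMOD1, at 14.94 CPM, lay between the ICM libraries there. In siBANF1 2 all 10 genes were close to ICM 2, from 87.1% (ACTG2) to 135% (MYLK), with MYLK at 121 CPM, ACTA2 at 55.91 CPM and TAGLN at 85.16 CPM. Thus ACTA2, TAGLN and ACTG2 differed little between the siBANF1 libraries, at 89.5%, 118% and 86.8%, while MYLK, LMOD1, CNN1 and MYL9 were lower in the second, at 13%, 24.6%, 44.8% and 49.3%, as they were in ICM 2 against ICM 1. The ratio of MYLK to MYL9 counts was 4.75 in siBANF1 1, the highest of the 14 libraries, against 2.63 in ICM 1. The kinase gene also yields telokin from the internal start shown above, and counts per gene do not separate these transcripts.

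None of the 10 genes was called between siBANF1 and ICM 1-2 by edgeR or by DESeq2, and both called 0% of all genes in either direction, with 53 genes at an unadjusted p under 0.05 by edgeR and none of the 10 among them. The largest fitted differences were -2.45 for ACTG2 (interval -5.15 to 0.25), -2.24 for TAGLN (-4.89 to 0.41), -1.97 for LMOD1 (-5.53 to 1.59) and -1.68 for ACTA2 (-3.92 to 0.56) on the log2 scale. MYLK was at 0.21 (-3.25 to 3.66). Leaving out any 1 of the 4 libraries gave no call among the 10.

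After CTCF knockdown none of the contractile genes was separated from its ICM controls. ACTA2 was at 59.99 and 43.95 CPM after the knockdown and at 64.08 and 38.16 CPM in the ICM controls. TAGLN was at 54.8 and 25.28 CPM against 62.08 and 20.85 CPM, MYL9 at 198.3 and 109.6 CPM against 209.8 and 105 CPM, and TPM1 at 72.26 and 57.62 CPM against 80.69 and 56.17 CPM. The 2 groups overlapped in all 10 genes. The log2 fold changes ran from -0.21 for LMOD1 (interval -1.45 to 1.03) to 0.17 for CALD1 (-0.29 to 0.63), with a median of -0.05 against -0.00 over all genes. For TPM2 the interval was -0.44 to 0.35, and for ACTG2 it was -2.57 to 2.37 without pairing. Set by the numbers in the file names, ACTG2 in siCTCF 1 was at 98.2% of ICM 3 and in siCTCF 2 at 74.2% of ICM 4. The edgeR fit called 0% of all genes higher and 0% lower, with 85 genes at an unadjusted p under 0.05 and none of the 10 among them, and DESeq2 called 0. The level of CTCF itself differed between the siCTCF libraries, at 71.5 and 22.97 CPM. ACTG2 (17.82 and 2.838 CPM), CNN1 (2.821 and 0.8589 CPM) and MYLK (32.1 and 12.96 CPM) were lower in the second library, and they were likewise lower in ICM 4 than in ICM 3.

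Of the factors known to drive these genes, MYOCD was at 37.24 and 56.19 CPM in the WT libraries and at 74.57 and 81.69 CPM after HMGB2 knockdown, a log2 fold change of 0.80 (SE 0.17, adjusted p = 0.0101, edgeR). Between the first ICM libraries it dropped from 61.92 CPM (ICM 1) to 1.087 CPM (ICM 2), the same order as the contractile genes. In ICM 3-4 it was at 0.7948 and 0.1183 CPM, a log2 fold change from WT of -6.92 (SE 0.56, adjusted p = 0.000235, edgeR). It was at 26.47 CPM in siBANF1 1, where MYLK was high but ACTA2, TAGLN and ACTG2 were at 11% to 19.6% of ICM 1, and at 1.184 CPM in siBANF1 2. In the libraries labelled siSRRM2 it was at 4.831 and 5.171 CPM. SRF ranged from 48.22 CPM (siBANF1 2) to 121.6 CPM (ICM 3), and its log2 fold change was 0.12 (SE 0.16) in siHMGB2 and 0.26 (SE 0.17) in ICM 3-4 against WT, neither called. MRTFA was at 41.07 and 49.87 CPM in siHMGB2, above both WT libraries, but its log2 fold change of 0.47 (SE 0.15) was not called (adjusted p = 0.0748, edgeR). It was higher in ICM 3-4, at 103.2 and 118.6 CPM where WT had 31.46 and 36.98 CPM, a log2 fold change of 1.45 (SE 0.18, adjusted p = 0.000876, edgeR). MRTFB fell in both comparisons, by 0.66 in siHMGB2 and by 0.90 in ICM 3-4 on the log2 scale. MRTF proteins act when they enter the nucleus, which RNA levels do not show.

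**Figure D4:**
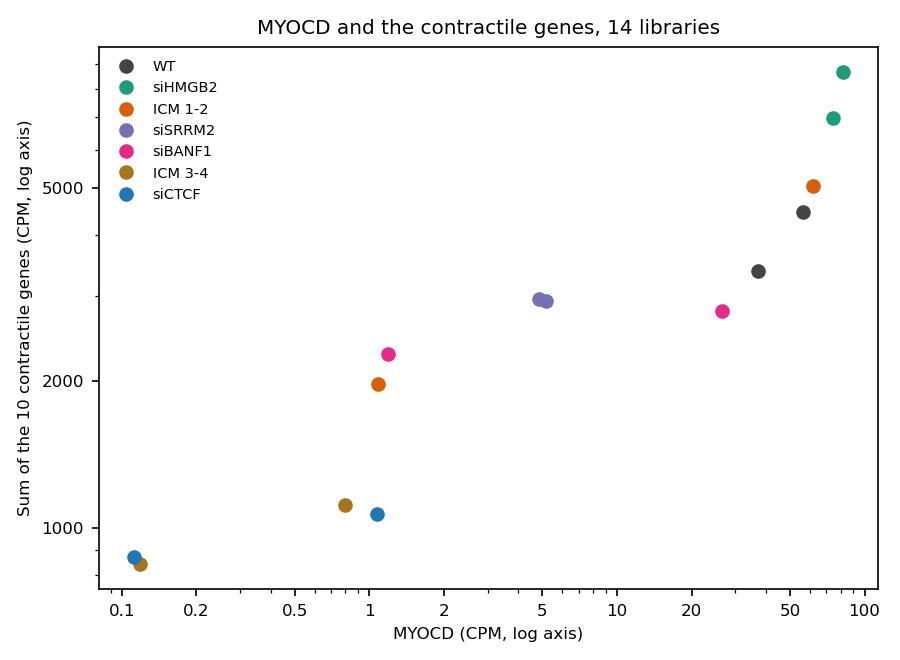
Summed CPM of the 10 contractile genes against CPM of MYOCD in the 14 libraries, both on log axes. The sum runs from 839.8 CPM in ICM 4 to 8694 CPM in siHMGB2 2, and MYOCD from 0.112 CPM in siCTCF 2 to 81.69 CPM in siHMGB2 2.

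Other contractile and cytoskeletal genes moved in both directions. Of all genes tested, 4.27% were called higher and 3.63% lower in siHMGB2, and 23.4% higher and 25.3% lower in ICM 3-4 against WT. Of 11 other smooth-muscle contractile genes tested, 4 were called higher and 1 lower in siHMGB2, TGFB1I1, an adaptor at focal adhesions, at a log2 fold change of 1.04 and FHL1, a LIM-domain protein of muscle, at -0.51. In ICM 3-4 against WT, 3 of the 11 rose and 7 fell. SMTN, smoothelin, rose from 48.24 and 53.36 CPM in WT to 153 and 221 CPM, a log2 fold change of 1.63, while FHL1 fell by 2.98. The list's median was 0.42 in siHMGB2 and -1.41 in ICM 3-4. Among 19 genes of the non-muscle actomyosin system 6 rose and 0 fell in siHMGB2, from ACTN1 at 0.59 to CNN2 at 1.03, and 1 rose and 13 fell in ICM 3-4, from TMSB4X at -3.37 to MYL12B at -0.46. TMSB4X, which binds free actin, was at 261.6 and 146.8 CPM there, where WT had 1984 and 1629 CPM. The medians of this list were 0.48 and -0.82.

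Of 19 contraction signalling genes, which include the myosin phosphatase and calmodulins, 3 rose and 0 fell in siHMGB2, where 4.27% of all genes rose and 3.63% fell, between PPP1R12A at 0.49 and PPP1R14B at 0.53 on the log2 scale. In ICM 3-4, 4 rose and 4 fell, where 23.4% of all genes rose and 25.3% fell, with a list median of -0.22. Called genes averaging 10 CPM or more ran from ARHGEF2 at 1.05 to CALM2, a calmodulin, at -1.28. MYLK3, which reached 0.9602 CPM at most, was called lower at -2.21. Of 14 other SRF and MRTF target genes, some of which also stand in the lists above, 7 rose and 0 fell in siHMGB2, from FHL2 at 0.58 to TGFB1I1 at 1.04. In ICM 3-4 against WT, 0 of them rose and 10 fell. Called genes averaging 10 CPM or more ran there from CCN2, a matricellular growth factor, at -3.15 to CCN1 at -0.61. ANKRD1, which averaged less than that, was called lower at -4.23. The medians of the 14 genes were 0.61 and -1.23.

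In siHMGB2 and in ICM 3-4 against WT, the matrix genes that go with the myofibroblast state had medians near those of the contractile genes. In ICM 1-2 against WT the medians were further apart, at -1.44 for the matrix genes and -0.03 for the contractile genes. In siHMGB2, 8 of 11 rose and 1 fell, with a median of 0.99, where 4.27% of all genes rose and 3.63% fell. COL3A1, a fibrillar collagen chain, fell by 1.19 on the log2 scale, from 2867 and 3606 CPM in WT to 1312 and 1419 CPM. In ICM 3-4, 0 rose and 9 fell, where 23.4% of all genes rose and 25.3% fell. The list's median there was -3.35, and the genes that fell ran from ELN, elastin, at -5.69 to COL1A1 at -2.51. None of the genes in these 6 lists was called in ICM 1-2 against WT or in the comparisons of siSRRM2, siBANF1 and siCTCF with ICM.

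Across the 14 libraries the 10 genes had related patterns. All 45 pairs had a positive Pearson correlation of log2(CPM + 1), with a median of 0.85, the highest between ACTG2 and TAGLN (0.98) and the lowest between TPM2 and MYL9 (0.16). TAGLN and LMOD1 were each at 0.97 with the mean of the other 9 genes, CNN1 at 0.96 and ACTA2 at 0.93, and TPM2 (0.69) and MYL9 (0.74) were lowest. Of 9192 genes that averaged 10 CPM or more, the 5 whose pattern was most like the mean of the 10 were IDH2, CTHRC1, VSTM4, ACTB and NYNRIN, each at 0.98. IDH2, the mitochondrial isocitrate dehydrogenase, ran from 98.93 CPM in siHMGB2 2 to 4.892 CPM in siCTCF 2. CTHRC1, a secreted protein of collagen-producing fibroblasts, ran from 191.3 CPM in siHMGB2 2 to 1.222 CPM in ICM 4. MYOCD was at 0.96 (rank 28), MRTFB at 0.39, SRF at -0.21 and MRTFA at -0.64. The 5 genes most like ACTA2 alone were FLT1, ACTG1, ADAM19, DSP and VSTM4, at 0.94 to 0.96, and FLT1, a VEGF receptor, was at 45.54 and 51.52 CPM after HMGB2 knockdown and at 11.2 and 13.99 CPM without it. These correlations rest on 7 groups that differ in set and depth and are given as a description.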

How the data were processed

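RNA was measured in 14 libraries of IMR90 cells. Per the labels' protocols, Trizol lysates gave total RNA, cleaned of DNA on the column, for paired-end NovaSeq runs of TruSeq libraries. The deposited values are raw read counts, whole numbers listed by gene symbol in a separate file for each library. The submitters' processing notes name STAR 2.7.3a, HTSeq 0.12.4, DESeq2 1.36.0 and the build hg38. The annotation release and strand setting are not given in the sources used here. The 5 lines per file for reads given to no gene (12.75% to 41.78% of a library) entered neither the library sizes nor the tests.

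From these counts, CPM was computed on total gene counts. Genes kept by filterByExpr on the 7 groups (19126) were TMM-scaled. Tests used edgeR 4.0.16 in R 4.3.3 (quasi-likelihood, bias-adjusted dispersions), each comparison on its own 4 libraries, with Benjamini-Hochberg adjustment over all 19126 genes and a threshold of 0.05. Intervals are 95% intervals of that fit. The test was checked on simulated data. Levels are given as the value of each library or as mean ± SD. Other steps used Python 3.11.15 with pandas 2.3.3, numpy 2.4.6 and matplotlib 3.10.9. Gene positions, overlaps and exonic lengths came from GENCODE v29, promoters from RefSeq.

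The 10 genes, the other gene lists and the tests were chosen with earlier results of these data known. Named besides the 10 genes are the called gene with the largest and that with the smallest fold change in each list (among those averaging 10 CPM or more in the comparison's 4 libraries), the 4 SRF factors, the knockdown targets, and the 5 genes most like the mean of the 10 and most like ACTA2 by Pearson correlation. A gene that this rule selected is not reported here. Other markers were named to check the cell type. Alternatives were relative log expression or total counts for scaling, other filters, DESeq2 1.42.0, a single fit of all 14 libraries, a threshold of 0.01, other ICM controls, a replicate block and leaving out each library. The older edgeR dispersion method and a crossed block were added after the data were seen.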

Additional observations from a re-analysis of the deposited data

Results flagged for a closer look

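Among the 4 libraries labelled ICM, 1 library lay far from the other 3 for 6 of the 10 contractile genes, and in each case it was ICM 1, above the rest. The gap to the next library exceeded Dixon's 95% critical value for 4 samples for ACTA2 (318.9 CPM in ICM 1), TAGLN (651.2 CPM), CNN1 (45.02 CPM), ACTG2 (118.7 CPM), MYLK (845.3 CPM) and LMOD1 (69.6 CPM), and LMOD1 had the widest gap for its range. The other 4 genes, MYL9, TPM1, TPM2 and CALD1, had gaps of 0.325 to 0.679 of the whole range, under that value. By construction such a gap turns up by chance in a small share of groups, and since the 6 genes vary together across libraries these are not 6 separate events. The 4 libraries come from 2 sets, and the cause was not tested.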

How the results depend on the processing

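The direction of the fold change was the same in all 130 values of the 10 genes over 13 settings for siHMGB2 against WT, and in all 120 values over 12 settings for ICM 3-4 against WT, the stricter threshold apart, which moves no fold change. For siHMGB2 against WT the count of 9 called genes was 7 to 10 under the other thresholds, filters, scalings and tools, 0 in the single fit of all 14 libraries, and 4 to 9 when a library was left out. For ICM 3-4 against WT it was 10 under each alternative but the single fit (8). Against ICM 1-2, ICM 3-4 had 0 called genes. It had 1 with scaling by total counts (317 of all genes), 1 with the older edgeR method (326), 7 with DESeq2 (2312) and 7 in the single fit (4198). Leaving out a library changed this count, as it did for ICM 1-2 against WT and siSRRM2 against ICM 1-2. Those fits leave a single library in a group, so their counts are not given for these comparisons. With ICM 3-4 as controls siSRRM2 had 6 called genes. Of all 19126 genes tested, 8293 were called there, 4248 higher and 4045 lower. TPM1 (2.38), MYLK (3.02) and LMOD1 (1.52) turned from lower to higher on the log2 scale with these controls. Directions also turned with a library left out. In ICM 1-2 against WT, leaving out ICM 1 and ICM 2 in turn gave the extremes -1.67 and 0.97 for ACTA2, -2.45 and 0.81 for TAGLN, -1.11 and 1.91 for CNN1, -2.24 and 1.15 for MYLK and -3.33 and 0.91 for LMOD1. In siSRRM2 the extremes were 0.44 and -2.20 for ACTA2, 1.17 and -2.22 for MYLK, 0.85 and -3.39 for LMOD1 and 1.11 and -0.28 for CALD1. The cause was not tested. The comparisons of siBANF1 and siCTCF gave 0 called genes throughout.

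Over all genes, DESeq2 called 1871 for ICM 1-2 against WT (edgeR 92), 2312 for ICM 3-4 against ICM 1-2 (edgeR 181) and 204 for siSRRM2 (edgeR 0), and the single fit called 3140, 4198 and 57 there. The older edgeR method called 46 for ICM 1-2 against WT and 326 for ICM 3-4 against ICM 1-2, where total counts gave 317 and no filter 50. A minimum of 1 CPM gave 32 for ICM 1-2 against WT, and all 4 ICM libraries gave 471. At 0.01, 698 genes were called in siHMGB2 against WT, 5479 in ICM 3-4 against WT and 19 in ICM 3-4 against ICM 1-2, and the single fit called 0 and 6145 in the first 2 of these. Replicate numbers are shared by groups, but the labels do not say that they mark a shared culture or day, and 2 pairs a comparison do not settle it. Over 9202 genes, the second-minus-first differences of the groups correlated at 0.87 for siBANF1 and ICM 1-2, 0.86 for siCTCF and ICM 3-4, 0.18 for siHMGB2 and WT, 0.11 for siSRRM2 and ICM 1-2 and -0.24 for ICM 1-2 and WT. With a replicate block, 10 contractile genes were called in siHMGB2 against WT (2378 genes in all, 1512 without the block), and 0 in ICM 1-2 against WT (1916 against 92 genes), siSRRM2 and siBANF1. For ICM 1-2 against WT the crossed block called 0 contractile genes and 697 in all. For siCTCF, whose labels share no number with ICM 3-4, a block by the number in the file names called 0 of the 10 and 3 genes in all. No paired analysis was possible for ICM 3-4 against WT or ICM 1-2 because they share no number. With 2 libraries a group, wide intervals rather than read depth limit these comparisons.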
